A study of Mus musculus with 14 samples.

Results

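The proteins of the cytosolic ribosome are encoded by a family of genes whose symbols begin with Rps for the small subunit and Rpl for the large subunit. The members described here are the genes of the count table whose symbol is Rps or Rpl followed by a number, with at most one letter (a, x, l, p or y) and one further digit, together with Rpsa, Rplp0, Rplp1 and Rplp2. Processed pseudogenes, whose names carry -ps, were left out. This gave 89 of 55359 genes with an Ensembl identifier. Of these, 81 passed the filter on low counts and were tested, 33 of the small and 48 of the large subunit. The other 8 held between 0 and 45 counts over the 14 samples.

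The samples were 14 libraries of mouse cerebral cortex, both hemispheres together, in 3 groups. The groups were 5 samples taken 7 d after cerebral venous sinus thrombosis (CVST, a clot in the large veins that drain the brain), 5 samples taken 2 d after CVST, and 4 sham samples. The labels give no strain, genotype, sex or age of the mice, no way in which the clot was made and no collection time for the sham samples. All groups share the tissue, Trizol extraction of total RNA and a NEBNext Ultra RNA library, and nothing in the labels says that the samples are separate animals, so p-values measure the spread between samples, which may be technical.

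Ribosomal proteins are made in the cytosol in matched amounts and are assembled on ribosomal RNA in the nucleolus, and a protein that finds no partner is degraded. Their mRNAs begin with a run of pyrimidines, the 5′ terminal oligopyrimidine (TOP) sequence, through which mTORC1 and the RNA-binding protein Larp1 set how well they are translated, so that the amount of protein made can change while the mRNA does not. In the brain, ribosomes work in cell bodies and also in dendrites and in the fine processes of astrocytes and microglia.

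The samples held 14.7 to 20.8 M gene counts (M for mega), and TMM factors, which scale libraries to each other, lay between 0.962 and 1.04. Mitochondrial genome transcripts made up 6.73% to 8.71% of all counts. Counting error was small beside the spread between samples: the chi-square per degree of freedom between replicates was 8.30 to 52.4, and the biological coefficient of variation was 0.218. All 9 markers of excitatory cortical neurons had counts in each group, with summed levels of 3869 to 6305 CPM (library-size scaled counts, TMM factors included) over the 5 CVST 7 d samples, 4764 to 5846 CPM over the 5 CVST 2 d samples and 4586 to 6042 CPM over the 4 sham samples.

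RefSeq promoter windows on GRCm38.p6 (250 bases before to 50 after a start) were matched by symbol to 64 of the 89 members and 60 of the 81 tested. One window per gene, that of the most 5′ start, was kept. The deposited files use the build mm39, so the coordinates given with these sequences are not those of the files. The 5 patterns that were searched for were chosen with results of these data known. The letters CTTCCG on either strand, the core of sites bound by ETS family factors, were found in 41 of the 60 windows (68.3%), against 17.2% of all 27025 windows. AAGATGGC on either strand, the core of sites bound by Yy1, was found in 6 of the 60 windows, against 2.87% of all windows. The looser AANATGGC, which holds every AAGATGGC match, was found in 21.7% of the members' windows and 6.2% of all. TATAAA was found in 11.7% of the members' windows and 14.2% of all. A run of at least 5 pyrimidines that begins with C within 5 bases of the annotated start, as a TOP sequence would, was found in 46.7% of the members' windows and 18.5% of all. With every listed start counted in place of one per gene, CTTCCG was in 62.0% of the members' windows and 16.9% of all. A match is a description of the letters and not a site.

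The windows of 8 members taken up below are shown from 120 bases before the annotated start to 30 bases from it, 5′ to 3′ on the gene's own strand, with CTTCCG or its reverse CGGAAG in capitals. They are Rplp0, the member that passed the test at 2 d, Rps6, the small subunit protein phosphorylated by S6 kinases downstream of mTORC1, and Rps4x. Shown with them are 3 pairs or copies, Rps27l beside Rps27, Rpl22l1 beside Rpl22, and Rpl7l1. All 8 were chosen with their values and matches known, and none is shown to be typical of the members.
Rplp0 (chr5:115559347-115559496, plus strand): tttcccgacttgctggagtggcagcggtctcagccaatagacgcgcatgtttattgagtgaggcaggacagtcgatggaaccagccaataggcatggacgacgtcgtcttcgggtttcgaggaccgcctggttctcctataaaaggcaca
Rps6 (chr4:86857338-86857487, minus strand): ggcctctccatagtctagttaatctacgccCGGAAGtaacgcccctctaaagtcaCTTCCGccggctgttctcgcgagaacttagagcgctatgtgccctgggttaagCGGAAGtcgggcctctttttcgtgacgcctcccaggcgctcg
Rps4x (chrX:102189362-102189511, minus strand): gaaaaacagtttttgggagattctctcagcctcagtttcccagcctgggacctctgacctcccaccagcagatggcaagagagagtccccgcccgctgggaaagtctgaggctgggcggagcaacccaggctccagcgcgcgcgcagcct
Rps27l (chr9:66945966-66946115, plus strand): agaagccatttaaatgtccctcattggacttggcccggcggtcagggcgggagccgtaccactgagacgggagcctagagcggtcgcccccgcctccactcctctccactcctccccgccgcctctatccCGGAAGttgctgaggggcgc
Rps27 (chr3:90213619-90213768, minus strand): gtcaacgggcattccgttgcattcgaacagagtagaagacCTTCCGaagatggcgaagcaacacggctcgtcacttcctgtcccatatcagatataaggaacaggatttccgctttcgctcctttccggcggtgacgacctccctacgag
Rpl22l1 (chr3:28805388-28805537, plus strand): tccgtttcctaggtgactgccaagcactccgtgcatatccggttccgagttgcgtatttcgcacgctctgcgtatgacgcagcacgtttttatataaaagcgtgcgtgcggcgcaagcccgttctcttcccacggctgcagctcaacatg
Rpl22 (chr4:152324316-152324465, plus strand): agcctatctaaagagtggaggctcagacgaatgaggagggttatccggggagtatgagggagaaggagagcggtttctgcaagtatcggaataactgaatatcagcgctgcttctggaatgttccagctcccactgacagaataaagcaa
Rpl7l1 (chr17:46782627-46782776, minus strand): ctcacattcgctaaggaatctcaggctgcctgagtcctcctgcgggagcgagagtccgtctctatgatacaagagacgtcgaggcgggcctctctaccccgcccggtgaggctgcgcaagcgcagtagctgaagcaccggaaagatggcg
Matches are counted here in the 150 bases shown only. Rps6 held 3 matches, the first beginning 90 bases before the start, and its run of pyrimidines was 10 bases long. Rps27 held 1 match and a run of 9. Rps27l held 1 match, which began 10 bases past the start, and a run of 5. Rpl22l1 held no match and a run of 8, and Rplp0, Rps4x, Rpl22 and Rpl7l1 held no match and runs of 3 or fewer. Runs were read only at the most 5′ annotated start, so a run at another start would be missed. In Rplp0 the letters TATAAA lie past the annotated start, and Rpl22 and Rps27l each had 2 listed starts. Whether these genes have a TOP sequence was not tested. Over the full windows, 250 bases before to 50 after the start, a gene with no match in the bases shown may still hold one. The members with and without CTTCCG in the full window had nearly the same median log2 fold change at 2 d against sham (0.23 in 41 members with it, 0.22 in 19 without).

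Ribosomal protein mRNA was abundant, and 76 of the 81 tested members averaged between 88.7 and 1015 FPKM. Levels between genes are given here per length, as the deposited FPKM, over the 14 samples. The highest were Rps15, a small subunit protein near the decoding centre, at 1015 ± 126 FPKM (SD, n = 14), Rpl41, the smallest protein of the large subunit, at 866.8 ± 156 FPKM, Rps24 at 850.3 ± 109 FPKM, Rpl13a at 736.6 ± 116 FPKM and Rplp1 at 735.9 ± 146 FPKM. The lowest of the tested members were Rpl12, a protein at the base of the stalk, at 14.9 ± 3.29 FPKM, Rps4l, a copy of Rps4x, at 20.3 ± 6.20 FPKM, Rpl7l1, a relative of Rpl7, at 23.9 ± 3.86 FPKM, Rpl5, which binds the 5S ribosomal RNA, at 29.4 ± 3.61 FPKM and Rps27l, a copy of Rps27 that p53 is known to induce, at 38.2 ± 14.6 FPKM. The SD ranges of Rps15, Rpl41 and Rps24 overlap, as do those of Rpl13a and Rplp1. The lengths that counts and FPKM imply are very short for small genes (92 bases for Rps27 and 242 for Rps15, against 1100 for Rpl3), which raises the FPKM of the smallest genes.

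**Figure D1:**
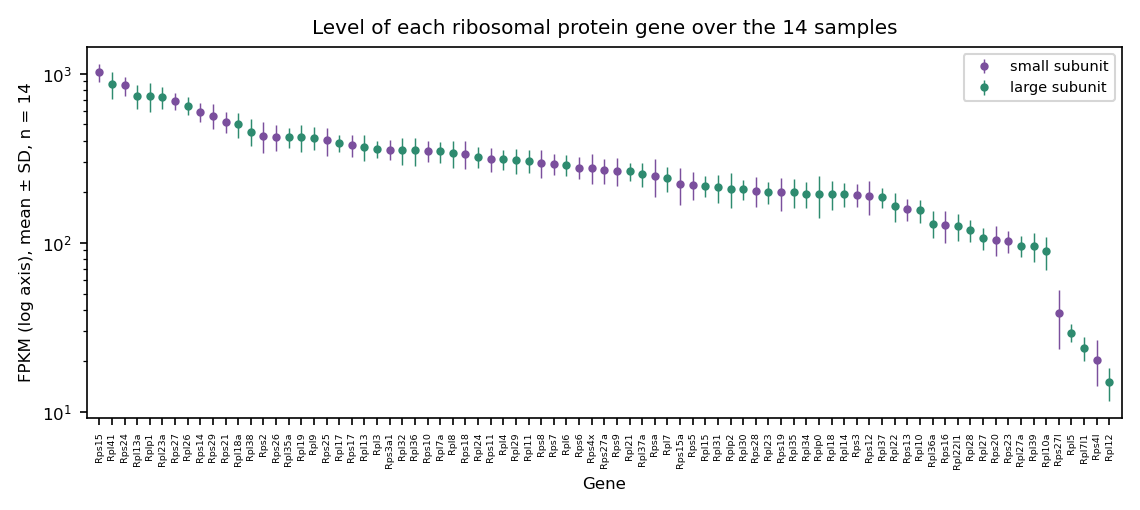
Level of the 81 tested ribosomal protein genes, in FPKM on a log axis, as the mean (point) and SD (bar) over the 14 samples, in falling order, with small and large subunit genes in 2 colours. Rps27l, Rpl5, Rpl7l1, Rps4l and Rpl12, at 38.2 to 14.9 FPKM, lie below the other 76 genes.

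Several copies of ribosomal protein genes, among them some known from other tissues, had few or no counts in this cortex. Rpl10l, known from testis, had 0 counts in all 14 samples, which allows a level of up to 0.0121 CPM (3 counts over all libraries), and Rps12l1 also had 0. Rpl3l, which replaces Rpl3 in heart and skeletal muscle, had 45 counts in all, and Rpl39l, another testis copy, had 11. Rpl6l had 1 count, Rpl32l 2, Rps3a3 5 and Rps3a2 6. Their partners were abundant: Rpl3 averaged 393.7 ± 30.2 CPM at CVST 7 d (SD, n = 5), 417.2 ± 49.8 CPM at CVST 2 d (SD, n = 5) and 369.3 ± 44.7 CPM in sham (SD, n = 4). Rpl3 was not called against sham at either time (0.09 ± 0.10 at 7 d and 0.18 ± 0.10 at 2 d, log2 ± SE, edgeR adjusted p = 0.672 and 0.346). The copies that were tested were Rps27l, Rpl22l1, Rpl7l1 and Rps4l.

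Some counts may be divided between a member and its processed pseudogenes, which are near-identical copies elsewhere in the genome. The table listed 322 such pseudogenes, of which 153 had counts, and they held 5.38% as many counts as the members. For 12 members the pseudogene counts exceeded 10% of the member's own, with Rpl10 (176%), Rps23 (130%) and Rpl10a (111%) at the top, so the levels of these members are uncertain. Rps6, at 24.6%, was among the 12. For Rplp0, Rps4x, Rps27l, Rpl22l1, Rpl7 and Rpl7l1 the pseudogene counts were between 0% and 0.012% of the member's own. The files do not say whether counting used strand, so reads of an antisense partner cannot be told apart from those of a member.

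At 2 d after CVST the ribosomal protein genes were together slightly higher than in sham, and the difference was uneven between samples. Each member's log2 CPM was set against its mean in the sham samples, and the median was taken over the 81 members of a sample. These medians were −0.10, −0.15, −0.00, 0.04 and 0.22 in the 5 CVST 7 d samples, 0.48, 0.44, 0.13, 0.04 and −0.00 in the 5 CVST 2 d samples, and 0.02, −0.19, 0.02 and 0.17 in the 4 sham samples. CVST 2 d samples 1 and 2 lay above every other sample, and CVST 2 d samples 3, 4 and 5 lay within the range of sham. Members moved together within a sample: 80 of 81 were above the sham mean in CVST 2 d sample 1, 80 in sample 2, 73 in sample 3, 52 in sample 4 and 40 in sample 5, and sham ranged from 1 member in sample 2 to 81 in sample 4. The spread of the medians within groups was 0.18 (pooled SD, n = 14). The members' share of all gene counts was 0.934% to 1.23% at CVST 7 d, 1.02% to 1.43% at CVST 2 d and 0.858% to 1.12% in sham. The 95% exact binomial interval of the highest share, 1.43% in CVST 2 d sample 2, was 1.42% to 1.43%. Such intervals cover counting error only and leave out the spread between samples. PCR copies were not told apart by molecular identifiers, so the intervals may be too narrow even for counting error. In bulk tissue, fewer cells of a type and less RNA per cell cannot be told apart.

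**Figure D2:**
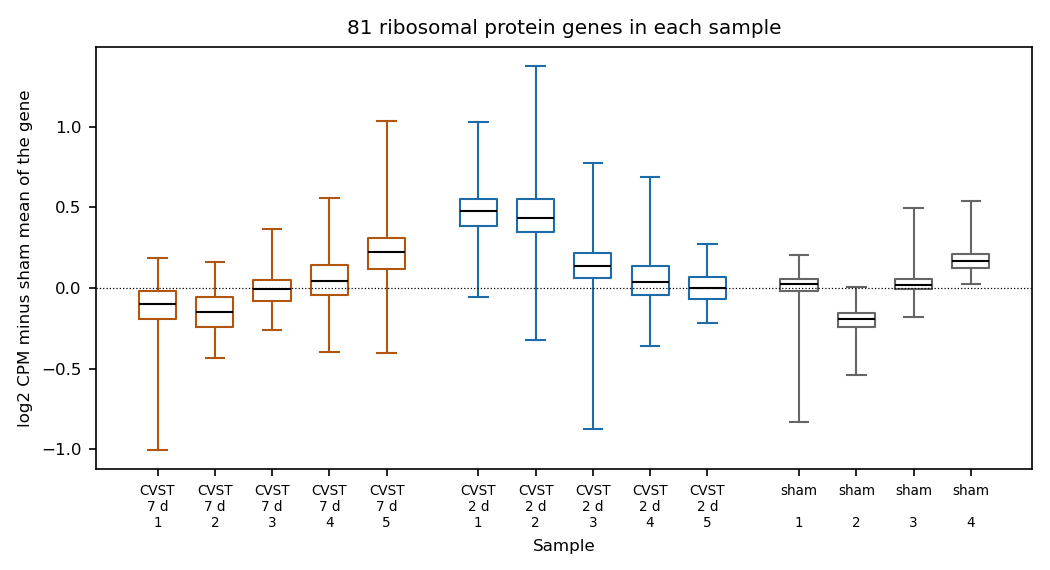
Log2 CPM of the 81 tested ribosomal protein genes minus the gene's mean in sham, for each sample: the line is the median, the box the range between the quartiles and the whiskers the full range over genes. CVST 2 d samples 1 and 2 have medians of 0.48 and 0.44, and the other samples lie between −0.19 and 0.22.

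Against sham at 2 d, 1 member was called higher, Rplp0, and 0 were called lower (edgeR quasi-likelihood test, Benjamini-Hochberg adjusted p under 0.05 over 16918 genes). Over all genes tested, 2.98% were called higher and 0.969% lower. At an unadjusted p under 0.05, 27 of the 81 members were higher (33.3%), against 12.3% of all genes, and 0 were lower, against 9.38% of all genes. DESeq2 called 6 members higher (7.41%, against 6.34% of all genes) and limma voom with sample weights 17 (21.0%, against 8.39% of all genes), and neither called one lower. The fitted fold was above 0 for 80 of 81 members, all but Rps4l, against 48.1% of all genes, and the median log2 fold change was 0.23, against −0.01 over all genes. The small subunit had a median of 0.23 over 33 genes and the large subunit one of 0.22 over 48 genes. The groups did not overlap for 3 members, Rplp0, Rpl4 and Rpl10, all higher at 2 d (3.7%, against 5.66% of all genes), and 0 members were wholly lower (against 3.06% of all genes).

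The size of the median depended on a few samples. Without CVST 2 d samples 1 and 2, a choice made after seeing the data, the median of the 81 members was 0.06, against −0.01 over all genes. In that fit 58 members were above 0, 2 were at an unadjusted p under 0.05 and 0 were called. It called 0.164% of all genes higher, and the shares of all genes for the other 2 measures were not computed. These 2 samples had the highest member medians, so leaving them out was bound to lower the median. Leaving out single samples gave medians between 0.16 and 0.28 and 0 to 14 called members, with 14 called higher without CVST 2 d sample 5 (17.3%), a fit in which 7.08% of all genes were called higher. The lowest of these medians were 0.163 without sham sample 2, 0.164 without CVST 2 d sample 1 and 0.167 without CVST 2 d sample 2. The members are also short genes: their median implied length was 456 bases, against 2428 over all tested genes, and 80 of the 81 lay in the shortest quartile. Over all genes, the median log2 fold change at 2 d against sham was, by length, 0.05, 0.02, −0.02 and −0.10 from the shortest to the longest quartile. With a trend on length taken into the offset of each sample, the median of the members was 0.16, and 4 members were called higher, Rplp0, Rps4x, Rpl14 and Rps25 (4.94%, against 3.45% of all genes). The part of length in the fold was not tested beyond this.

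Rplp0 forms the base of the ribosomal stalk, where it holds Rplp1 and Rplp2 and brings elongation factors to the large subunit. Rplp0 measured 181.2, 163.3, 186.0, 218.5 and 255.3 CPM in the CVST 7 d samples, 320.3, 311.4, 236.0, 254.9 and 175.0 CPM in the CVST 2 d samples, and 170.1, 141.8, 163.9 and 169.1 CPM in the sham samples. The 5 CVST 2 d samples all lay above the 4 sham samples, although sample 5 did so by little, and CVST 7 d overlapped both. Rplp0 rose at 2 d against sham by 0.69 ± 0.17 (log2 ± SE, n = 5 and 4, edgeR adjusted p = 0.0351). At 7 d against sham it differed by 0.32 ± 0.16 (adjusted p = 0.309). The 2 d call was lost, at edgeR adjusted p-values of 0.0866, 0.0852, 0.0567 and 0.0612, without CVST 2 d sample 1, 2, 3 or 4, and at 0.0651, 0.122, 0.103 and 0.0882 without sham sample 1, 2, 3 or 4. Over the 24 fits run, it was called in 14, and its fold lay between 0.47 and 0.81.

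The partners of Rplp0 in the stalk were not called. Rplp1 averaged 153.0 ± 18.6 CPM at CVST 7 d (SD, n = 5), 199.1 ± 42.9 CPM at CVST 2 d (SD, n = 5) and 180.7 ± 31.8 CPM in sham (SD, n = 4), and its fold at 2 d against sham was 0.14 ± 0.16 (edgeR adjusted p = 0.642). Rplp2 averaged 54.8 ± 10.3 CPM at CVST 7 d, 65.2 ± 16.1 CPM at CVST 2 d and 53.6 ± 9.73 CPM in sham, with a fold at 2 d of 0.28 ± 0.18 (adjusted p = 0.389). Whether Rplp0 differed from Rplp1 and Rplp2 in its fold was not tested. Relative to the median member of each sample, Rplp0 was 0.30 above its sham mean at CVST 7 d and 0.44 above it at CVST 2 d, among the widest departures of any member (log2, a description).

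In the small subunit, Rps4x came closest to the threshold. It measured 182.2, 177.9, 192.6, 205.1 and 232.1 CPM at CVST 7 d, 265.0, 272.2, 214.9, 197.2 and 183.1 CPM at CVST 2 d, and 160.2, 143.2, 165.7 and 188.4 CPM in sham. Only CVST 2 d sample 5 lay below the highest sham sample, and the fold at 2 d was 0.46 ± 0.13 (edgeR adjusted p = 0.0560). Rps4x was called in 6 of the 24 fits, DESeq2 and limma voom among them (adjusted p = 0.00903 and 0.0119), and its fold was 0.28 without CVST 2 d samples 1 and 2. Rps6 averaged 166.1 ± 8.07 CPM at CVST 7 d, 192.7 ± 29.9 CPM at CVST 2 d and 161.3 ± 20.1 CPM in sham, a 2 d fold of 0.26 ± 0.11 (adjusted p = 0.191). Rpsa, also known as the laminin receptor, averaged 270.6 ± 39.1 CPM at CVST 7 d, 370.2 ± 84.8 CPM at CVST 2 d and 286.3 ± 31.2 CPM in sham, a 2 d fold of 0.37 ± 0.15 (adjusted p = 0.181). Rps19, mutated in human Diamond-Blackfan anaemia, averaged 67.1 ± 11.2 CPM at CVST 7 d, 82.8 ± 14.5 CPM at CVST 2 d and 67.3 ± 11.4 CPM in sham, a 2 d fold of 0.30 ± 0.15 (adjusted p = 0.263). These groups overlapped for each of the 4 genes.

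In the large subunit, Rpl14 and Rpl7 came next at 2 d. Rpl7 measured 194.0, 190.2, 197.9, 222.5 and 242.8 CPM at CVST 7 d, 256.4, 258.0, 211.9, 199.3 and 186.1 CPM at CVST 2 d, and 170.2, 160.0, 176.0 and 196.9 CPM in sham. Its lowest values at each time after CVST overlapped the highest of sham, and the folds were 0.25 ± 0.11 at 7 d and 0.34 ± 0.11 at 2 d (edgeR adjusted p = 0.228 and 0.102). Rpl14 averaged 139.8 ± 10.7 CPM at CVST 7 d, 161.1 ± 23.3 CPM at CVST 2 d and 126.5 ± 15.8 CPM in sham, a 2 d fold of 0.35 ± 0.11 (adjusted p = 0.0906). Rpl5 and Rpl11, which with the 5S ribosomal RNA bind Mdm2 when ribosome assembly is disturbed, had 2 d folds of 0.17 ± 0.11 and 0.24 ± 0.13 (adjusted p = 0.396 and 0.278). Rpl39, at the exit of the peptide tunnel, had a 2 d fold of 0.36 ± 0.15, and Rpl10, one of the last proteins to join the large subunit, had one of 0.31 ± 0.13 (adjusted p = 0.175 and 0.173).

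**Figure D3:**
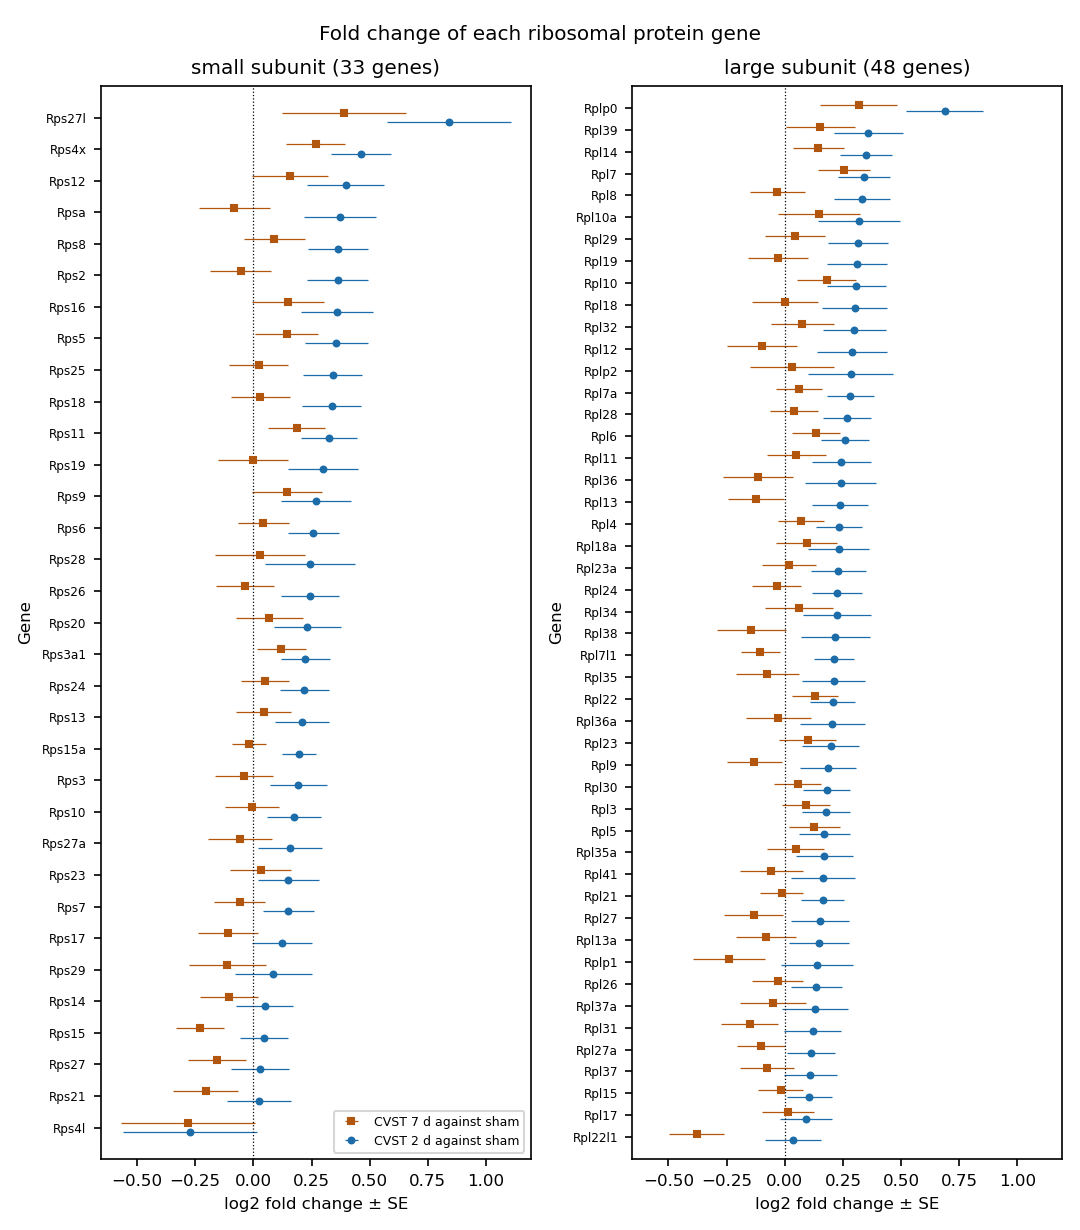
Fitted log2 fold change against sham of each tested ribosomal protein gene, with its SE as a bar, small subunit left and large subunit right, ordered by the fold at 2 d. Squares are CVST 7 d against sham and circles are CVST 2 d against sham: the circles lie above 0 for 80 of 81 genes and the squares for 42.

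At 7 d against sham the members lay on both sides of 0. Of the 81 members, 0 were called in either direction by edgeR, against 3.61% of all genes called higher and 0.833% called lower, and DESeq2 (6.16% of all genes higher, 2.03% lower) and limma voom (3.4% higher, 1.71% lower) also called 0 members. At an unadjusted p under 0.05, Rpl7 was higher and Rpl22l1 and Rps15 were lower, which is 1.23% and 2.47% of the members, against 11.7% and 7.91% of all genes. The fold was above 0 for 42 of 81 members, against 47.7% of all genes, with a median of 0.01, against −0.01 over all genes. No member's groups were without overlap, while 5.84% of all genes had CVST 7 d wholly above sham and 3.87% wholly below. With the trend on length in the offset, the median was 0.09, 62 of 81 members were above 0, and 18 were higher and 2 lower at an unadjusted p under 0.05. That fit called 2 members higher and 1 lower (2.47% and 1.23%, against 3.98% and 1.21% of all genes). Leaving out single samples moved the median between −0.05 and 0.07.

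Rps15 measured 203.6, 207.1, 227.1, 210.2 and 248.6 CPM in the CVST 7 d samples, 318.9, 283.9, 251.7, 223.3 and 247.5 CPM in the CVST 2 d samples, and 262.4, 226.5, 257.7 and 281.1 CPM in the sham samples. All but 2 of the CVST 7 d samples lay below the lowest sham sample. Its fold at 7 d against sham was −0.23 ± 0.10 (edgeR adjusted p = 0.239). Rps27 averaged 59.3 ± 6.69 CPM at CVST 7 d (SD, n = 5), 67.4 ± 9.97 CPM at CVST 2 d (SD, n = 5) and 66.1 ± 9.62 CPM in sham (SD, n = 4), and its folds were −0.16 ± 0.12 at 7 d and 0.03 ± 0.12 at 2 d (adjusted p = 0.526 and 0.919).

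Between the times, the fitted fold of 7 d over 2 d was above 0 for 0 of 81 members, against 51.2% of all genes. The median was −0.21, against 0.01 over all genes. By edgeR 1 member was called lower, Rpl7l1, and 0 higher, against 1.25% of all genes called lower and 1.54% called higher. At an unadjusted p under 0.05, 29 members were lower (35.8%, against 10.6% of all genes) and 0 higher (against 10.3%), and DESeq2 called 7 lower (8.64%, against 3.75% of all genes) and limma voom 10 (12.3%, against 3.85% of all genes). The size of this median also depended on CVST 2 d samples 1 and 2. Without them the median was −0.03, against −0.00 over all genes, 22 members were above 0 and 0 were called. That fit called 0.0352% of all genes lower. With the trend on length in the offset the median was −0.07, against −0.00 over all genes, and 19 members were above 0. Without the offset, over all genes, the shortest quartile had a median of −0.10 and the longest of 0.09. The comparisons at 2 d against sham and of 7 d with 2 d share the CVST 2 d samples, so they are not independent.

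Rpl7l1, whose yeast relative Rlp7 works in the assembly of the large subunit, measured 35.1, 32.4, 36.7, 36.7 and 39.8 CPM in the CVST 7 d samples, 51.2, 47.4, 45.2, 42.4 and 38.8 CPM in the CVST 2 d samples, and 36.9, 37.5, 41.0 and 40.0 CPM in the sham samples. The highest CVST 7 d sample exceeded the lowest CVST 2 d sample, and the other 4 of each group were apart. Rpl7l1 was lower at 7 d than at 2 d, with a fold of −0.32 ± 0.08 (log2 ± SE, n = 5 each, edgeR adjusted p = 0.0497). Leaving out any 1 sample other than CVST 7 d sample 5 or CVST 2 d sample 5 lost the call, with adjusted p-values up to 0.133 and folds between −0.36 and −0.27. Against sham it was not called (−0.10 ± 0.08 at 7 d and 0.21 ± 0.09 at 2 d, adjusted p = 0.535 and 0.167).

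Among the others, Rps2 averaged 278.5 ± 38.3 CPM at CVST 7 d, 371.4 ± 67.4 CPM at CVST 2 d and 289.1 ± 28.4 CPM in sham, and its fold between the times was −0.42 ± 0.12 (edgeR adjusted p = 0.0822). Rpl8 averaged 181.2 ± 19.2 CPM at CVST 7 d and 233.1 ± 40.7 CPM at CVST 2 d, a fold of −0.36 ± 0.11 (adjusted p = 0.0906). Rpl13 averaged 172.3 ± 13.9 CPM at CVST 7 d and 221.5 ± 41.7 CPM at CVST 2 d, a fold of −0.36 ± 0.11 (adjusted p = 0.0950). None of the 3 passed the threshold.

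Among the members, Rps4l, Rps27l, Rplp0 and Rpl22l1 varied most relative to the median member of their sample (SD over the 14 samples of 0.49, 0.36, 0.23 and 0.19, log2), and Rps3 and Rpl23a least (0.04 each). Rpl22l1 is a copy of Rpl22, which is known in mouse cells to hold Rpl22l1 mRNA down. Rpl22l1 measured 29.4, 29.1, 34.1, 29.8 and 29.7 CPM in the CVST 7 d samples, 52.4, 42.4, 36.5, 35.2 and 36.2 CPM in the CVST 2 d samples, and 41.3, 33.3, 38.3 and 45.3 CPM in the sham samples. All CVST 7 d samples lay below all CVST 2 d samples (1 member of 81, against 2.13% of all genes, and 0 members the other way, against 2.28%) and all but sample 3 lay below all sham samples. The folds of Rpl22l1 were −0.38 ± 0.12 at 7 d against sham and −0.41 ± 0.11 at 7 d against 2 d (edgeR adjusted p = 0.0925 and 0.0653), neither past the threshold. DESeq2 called Rpl22l1 at 7 d against 2 d (adjusted p = 0.0176), where the length offset gave a fold of −0.24 (adjusted p = 0.0755). At 7 d against sham the length offset called it, at −0.27 (adjusted p = 0.0492), and over the 24 fits it was called in 3 there and in 2 at 7 d against 2 d. Rpl22 averaged 78.6 ± 5.48 CPM at CVST 7 d, 82.8 ± 10.8 CPM at CVST 2 d and 71.8 ± 6.12 CPM in sham, with a fold of 0.13 ± 0.10 at 7 d against sham (adjusted p = 0.497).

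Rps27l measured 7.39, 6.46, 6.76, 9.60 and 13.4 CPM in the CVST 7 d samples, 13.4, 17.0, 11.2, 10.5 and 7.64 CPM in the CVST 2 d samples, and 5.94, 5.09, 6.16 and 9.48 CPM in the sham samples. All but sample 5 of CVST 2 d lay above sham, and CVST 7 d overlapped sham. Its fold of 0.84 ± 0.27 at 2 d against sham was larger than that of any other member and was not called by edgeR (adjusted p = 0.0894). It was called by DESeq2 (adjusted p = 0.0285) and by limma voom (adjusted p = 0.0161), in 4 of the 24 fits in all, and the fold was 0.56 without CVST 2 d samples 1 and 2 (edgeR adjusted p = 0.444). Rps4l measured 7.39 to 19.1 CPM (median 11.7) at CVST 7 d, 8.12 to 15.9 CPM (median 14.4) at CVST 2 d and 8.35, 14.5, 21.2 and 19.5 CPM in sham, and the groups overlapped. Its folds against sham were −0.28 ± 0.29 at 7 d and −0.27 ± 0.29 at 2 d, and neither was called (adjusted p = 0.637 at 7 d).

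**Figure D4:**
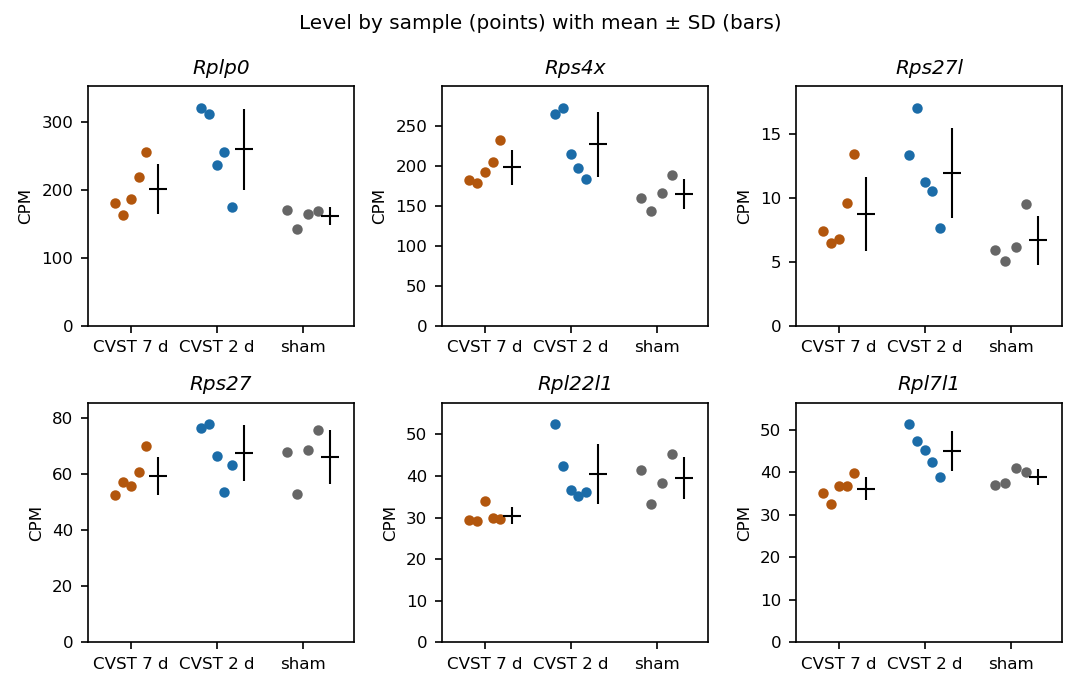
Level in CPM of 6 ribosomal protein genes in each sample (points), with the mean and SD of each group (bar), for CVST 7 d (n = 5), CVST 2 d (n = 5) and sham (n = 4). Rplp0 at CVST 2 d lies wholly above sham, Rpl22l1 at CVST 7 d lies wholly below CVST 2 d, and the groups of Rps27 overlap.

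Other genes of protein synthesis were set beside the members. The calls of these related lists come from the main fit alone and were not followed through the fits with samples left out. Without CVST 2 d samples 1 and 2, 0.164% of all genes were called higher at 2 d against sham, in place of 2.98%. Rack1, a scaffold on the small subunit, averaged 136.4 CPM at CVST 7 d, 162.7 CPM at CVST 2 d and 121.2 CPM in sham (2 d fold 0.43 ± 0.15, edgeR adjusted p = 0.121) and was not called. Of 21 elongation factors and other TOP mRNAs, 1 rose at 2 d, Pabpc1, the poly(A)-binding protein, at 176.8 CPM at CVST 7 d, 185.4 CPM at CVST 2 d and 130.0 CPM in sham (2 d fold 0.51 ± 0.13, adjusted p = 0.0447). Over all genes tested, 2.98% were called higher at 2 d against sham. The median of these 21 genes was 0.08 at 7 d against sham, 0.18 at 2 d against sham and −0.07 between the times.

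Of 49 tested genes of ribosome biogenesis, 4 were lower at 7 d than at 2 d and 0 higher: Eif6, an anti-association factor of the large subunit (−0.55 ± 0.11, edgeR adjusted p = 0.0188), Fbl, the methyltransferase fibrillarin (−0.48 ± 0.10, adjusted p = 0.0241), Rrs1 (−0.38 ± 0.09, adjusted p = 0.0403) and Nop2 (−0.34 ± 0.08, adjusted p = 0.0437). Over all genes, 1.25% were called lower and 1.54% higher between the times. The median of the 49 genes was −0.12 at 7 d against sham, 0.10 at 2 d against sham and −0.21 between the times. Bysl fell at 7 d against sham (−0.37 ± 0.10, adjusted p = 0.0477), where 0.833% of all genes were called lower. Of 18 genes of mTORC1 and TOP control, Eif4ebp1, an inhibitor of cap-dependent translation, averaged 2.62 CPM at CVST 7 d, 5.63 CPM at CVST 2 d and 1.81 CPM in sham. Eif4ebp1 rose at 2 d against sham (1.63 ± 0.30, adjusted p = 0.0139) and was lower at 7 d than at 2 d (−1.10 ± 0.27, adjusted p = 0.0462). Myc, a transcription factor that drives ribosome synthesis, averaged 3.78 CPM at CVST 7 d, 8.36 CPM at CVST 2 d and 3.57 CPM in sham, rose at 2 d (1.22 ± 0.26, adjusted p = 0.0243) and was lower at 7 d than at 2 d (−1.14 ± 0.24, adjusted p = 0.0256). Of the 18, 2 were called higher at 2 d against sham, against 2.98% of all genes. Between the times 2 were called lower, against 1.25% of all genes. The median of the 18 was 0.01 at 2 d.

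Mitochondrial ribosomal proteins form a separate ribosome. Of 79 tested, 1 rose at 2 d against sham, Mrps6 (14.6 CPM at CVST 7 d, 35.1 CPM at CVST 2 d and 16.5 CPM in sham, 2 d fold 1.09 ± 0.22, edgeR adjusted p = 0.0191). At 7 d against sham, Mrps14 (−0.45 ± 0.10) and Mrps33 (−0.35 ± 0.09) fell (adjusted p = 0.0224 and 0.0379). Mrps6 (−1.27 ± 0.21), Mrpl21 (−0.46 ± 0.11) and Mrps34 (−0.45 ± 0.11) were lower at 7 d than at 2 d (adjusted p = 0.0100, 0.0362 and 0.0404). Over all genes, 2.98% were called higher at 2 d against sham, 0.833% lower at 7 d against sham and 1.25% lower between the times. The median of the 79 was −0.14 at 7 d against sham, 0.06 at 2 d against sham and −0.18 between the times. The 14 core proteasome genes had medians of −0.09 at 7 d against sham, 0.15 at 2 d against sham and −0.26 between the times, with 1 called, Psmb4, lower at 7 d than at 2 d (−0.34 ± 0.08, adjusted p = 0.0318). Nuclear genes of oxidative phosphorylation are as short as the members (median implied length 292 bases, 27 tested) and had medians of −0.23 at 7 d against sham, −0.05 at 2 d against sham and −0.20 between the times. Of these 27, 0 were called by edgeR in any comparison, with 10 lower at 7 d against sham at an unadjusted p under 0.05. At that threshold 7.91% of all genes were lower at 7 d against sham.

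**Figure D5:**
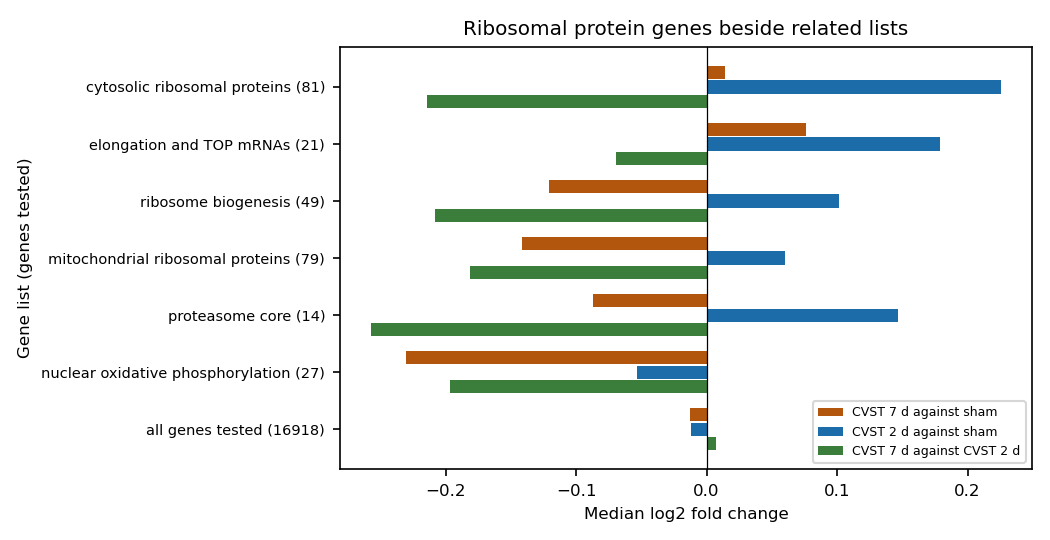
Median log2 fold change of the cytosolic ribosomal protein genes and of related gene lists, with the number of genes tested in brackets, for the 3 comparisons. At 2 d against sham the ribosomal protein genes have the highest median of the lists drawn, 0.23, and at 7 d against sham their median is 0.01.

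Markers of several cell types differed between the same samples. Summed reactive astrocyte markers (10 of 10 with counts in each group) were 851 to 2935 CPM at CVST 7 d, 800 to 2636 CPM at CVST 2 d and 193 to 256 CPM in sham. In CVST 2 d samples 1 to 5 these sums were 2333, 2636, 1660, 2585 and 800 CPM, where the member medians were 0.48, 0.44, 0.13, 0.04 and −0.00. Microglia and macrophage markers (16 of 16) were 538 to 2120 CPM at CVST 7 d, 475 to 1119 CPM at CVST 2 d and 361 to 411 CPM in sham. In CVST 2 d samples 1 to 5 they were 842, 1119, 739, 747 and 475 CPM. In CVST 7 d samples 1 to 5 they were 1096, 538, 930, 1996.5 and 2120 CPM, where the member medians were −0.10, −0.15, −0.00, 0.04 and 0.22. Markers of proliferating cells (8 of 8) were 15.6 to 85.6 CPM at CVST 7 d, 7.4 to 101 CPM at CVST 2 d and 6.8 to 8.5 CPM in sham. Red cell markers (5 of 5) reached 32.5 CPM at CVST 7 d, 385 CPM at CVST 2 d, in sample 2, and 26.0 CPM in sham. Fibroblast markers (6 of 6) were 153 to 3073 CPM at CVST 7 d, 135 to 211 CPM at CVST 2 d and 102 to 206 CPM in sham. The highest sum was that of CVST 7 d sample 5, which also had the highest member median of its group. That sample also had its group's highest sums for microglia and macrophages, proliferating cells and lymphocytes, and not for the remaining lists. Choroid plexus markers (6 of 6) were 12.5 to 127 CPM at CVST 7 d, 8.1 to 506 CPM at CVST 2 d and 13.6 to 878 CPM in sham. Oligodendrocyte markers (8 of 8) were 3725 to 8219 CPM at CVST 7 d, 2957 to 4733 CPM at CVST 2 d and 3090 to 7792 CPM in sham. Endothelial markers (7 of 7) were 206 to 294 CPM at CVST 7 d, 251 to 390.5 CPM at CVST 2 d and 221 to 269 CPM in sham. Lymphocyte markers were at most 16.2 CPM at CVST 7 d (12 of 12 with counts), 13.9 CPM at CVST 2 d (12 of 12) and 17.9 CPM in sham (10 of 12, with Nkg7 and Cd3d at 0). The part of these cell types in the ribosomal protein levels was not tested.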

How the data were processed

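RNA from mouse cerebral cortex was measured in 14 samples. The authors deposited whole-number read counts per gene and FPKM values per gene. Per the submitters' processing notes, fastp, HISAT2 and DESeq2 1.16.1 were used with the build mm39. Not given in the sources used here are the counting tool, annotation and strand setting. The table held 55894 entries, and 535 without an Ensembl gene (0.203% to 0.278% of counts) were left out. Of the members, 32 carry the identifier of an assembled locus beside their Ensembl identifier.

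All 14 samples were fitted in edgeR 4.0.16 (R 4.3.3) with group means, TMM scaling, filterByExpr and the quasi-likelihood test, 2-sided, Benjamini-Hochberg adjusted over 16918 genes and called under 0.05. The SE was taken from the fold and its p. CPM used TMM factors, and log2 CPM a prior count of 2. Folds put the group named first over the second. Related genes came from 7 lists, of which 1 is not reported here, and cell types from 10 marker lists. Alternatives were RLE size factors, no count filter, DESeq2 1.42.0, a replicate block, a gene length offset (lowess span 0.3), limma 3.58.1 voom with sample weights, only the 2 groups compared, and leaving out each sample. The scripts were tested on simulated data.

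The members and lists were chosen with earlier results of these data known. Named are all called members, filled to 5 per comparison by lowest p, a panel of copies with their partners, stalk and assembly proteins, the 5 highest and 5 lowest by FPKM, and up to 4 genes per related list. Rpl4 was named after its values were seen, as were Rps3, Rpl23a, Rps23, Rpl10a, Rps25 and the copies Rps12l1, Rpl6l, Rpl32l, Rps3a2 and Rps3a3. The promoter patterns, the length quartiles, the pseudogene counts and the 8 promoters shown were also chosen with values known. The labels do not say whether the replicate numbers pair samples. Deviations of same-numbered samples correlated over 0.1 in 2 of 13 pairs, a check that cannot exclude a pairing with so few samples per group.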

Additional observations from a re-analysis of the deposited data

Results flagged for a closer look

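In 5 of 88 groups of samples that were checked for the named members, one sample stood apart from the others of its group by more than the 95% limit of Dixon's test, and chance gives about 1 in 20. At CVST 7 d, sample 5 was high for Rpl11 (157 CPM, the others 123 to 132), Rplp1 (185 CPM, the others 138 to 152) and Rpl41 (264 CPM, the others 193 to 205), and sample 3 was high for Rpl22l1 (34.1 CPM, the others 29.1 to 29.8). In sham, sample 2 was low for Rpl13a (217 CPM, the others 281 to 291). The fold of Rpl7l1 against sham at 7 d differed from that at 2 d by −0.32 (log2, edgeR adjusted p = 0.0497), which is the same test as 7 d against 2 d because the sham samples cancel.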

How the results depend on the processing

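Counts of called members moved most. At 2 d against sham, where edgeR called 1 higher, DESeq2 called 6, the gene length offset 4 and voom with sample quality weights 17, while the share of all genes called higher was 2.98% by edgeR, 6.34% by DESeq2, 3.45% with the offset and 8.39% by voom. The count was 0 without both CVST 2 d samples 1 and 2, and 16 without CVST 2 d sample 5 and CVST 7 d sample 2 (both chosen after seeing the data), with 0.164% and 8.17% of all genes called higher. Leaving out each sample in turn gave 0 to 14 higher, with 14 in a fit that called 7.08% of all genes higher. The fits that gave 0 called 0.349% to 1.56% of all genes higher. At 7 d against sham, the length offset called 2 higher and 1 lower, with 3.98% of all genes called higher and 1.21% lower. Leaving out both CVST 2 d samples 1 and 2 called 1 lower (0.604% of all genes lower). Leaving out single samples called 0 to 1 lower, with 1 without CVST 2 d sample 1 (0.67% of all genes lower). At 7 d against 2 d, where edgeR called 1 lower, DESeq2 called 7 and voom 10 (1.25% of all genes lower by edgeR, 3.75% by DESeq2, 3.85% by voom). The count was 0 with no filter on low counts, with only the 2 groups compared and without both CVST 2 d samples 1 and 2. Those fits called 0.594%, 0.159% and 0.0352% of all genes lower. Leaving out single samples gave 0 to 8 lower, with 8 without CVST 2 d sample 5, a fit that called 4.18% of all genes lower. The single-sample fits that gave 0 called 0.445% to 1.08% of all genes lower. The medians of the members ranged over single samples left out from 0.16 to 0.28 at 2 d against sham, −0.05 to 0.07 at 7 d against sham and −0.27 to −0.14 between the times. Without both CVST 2 d samples 1 and 2 the last was −0.0296. The cause of these shifts was not tested. No direction of a called member reversed in the alternatives run.

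With the replicate block, 0 members were called in the comparisons at 2 d against sham and of 7 d with 2 d. That fit called 1.1% of all genes higher at 2 d against sham and 0.201% lower between the times. Rplp0 had an edgeR adjusted p of 0.0852 at 2 d against sham. Each sample correlated best with its own number in 2 of 14 cases, and correlations of same-numbered samples ranged from −0.44 to 0.28. With so few samples per group these values cannot decide whether the numbers are a pairing.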

Other observations

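The processed pseudogenes of ribosomal protein genes were measured beside the members, with 20 of 322 tested. Their median log2 fold change was 0.05 at 7 d against sham, 0.33 at 2 d against sham and −0.25 between the times. By edgeR 0 were called in each, against 4.44%, 3.95% and 2.8% of all genes in either direction. At an unadjusted p under 0.05, 4 of the 20 were higher at 2 d against sham, against 12.3% of all genes. At the same threshold 2 were lower between the times, against 10.6% of all genes. Their per-sample medians relative to the sham mean were −0.13, −0.04, 0.05, 0.01 and 0.39 at CVST 7 d, 0.50, 0.54, 0.41, 0.09 and 0.05 at CVST 2 d, and 0.04, −0.23, 0.06 and 0.20 in sham. The highest counts were those of Rpl10-ps3 (31340 over the 14 samples) and Rps23-ps1 (20534).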
